A study of Homo sapiens with 8 samples.

Results

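Kinesins are the motor proteins that walk along or dismantle microtubules, and the values below describe every kinesin gene in the count table whose symbol starts with KIF followed by a digit or the letter C. This symbol rule took 42 of the 23368 symbols. By their known roles, 15 were placed with the mitotic kinesins, 17 with the transport kinesins, and 10 with ciliary or other kinesins. A few genes belong to more than one role, such as KIF2A, and each was counted once. CENPE, a kinesin of the kinetochore whose symbol lacks these letters, was kept among the partner genes.

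The study compared RNA levels in HEK293F cells, a human embryonic kidney line adapted to fast growth in suspension and here grown in serum-containing medium, after the RNA helicase MOV10 was raised or lowered. MOV10 overexpression (3 libraries) followed a single transfection with a plasmid for myc-tagged MOV10. MOV10 knockdown (2 libraries) followed 3 treatments with a MOV10 siRNA spaced 24 hours apart, and the control (3 libraries) followed the same course with an irrelevant siRNA. The control therefore matches the knockdown in its siRNA course. For the overexpression libraries a plasmid transfection is listed but no siRNA course, and libraries given only the empty plasmid were lacking here. Against control, the added MOV10 thus cannot be told apart from the plasmid transfection or from the siRNA course of the control. The labels do not state separate cultures for the libraries of a group, and the p-values below measure library-to-library spread that could be purely technical.

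Each kinesin has a motor domain that binds microtubules and splits ATP. Mitotic kinesins build the spindle, move and align chromosomes, and organise the central spindle through which a dividing cell separates. They are made mostly late in the cell cycle, under promoters that often carry a cell cycle genes homology region and CCAAT boxes. Transport kinesins carry vesicles, organelles, protein complexes and RNA granules, mainly towards the microtubule plus end, and several of them are known best from axons.

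Total counts ran from 12.7 to 32.8 M reads per library, and kinesin genes took 0.325% to 0.347% of the reads with overexpression, 0.339% to 0.343% with knockdown and 0.344% to 0.357% in control. Levels are given as CPM, the counts of a gene per M reads of its library after TMM scaling. MOV10 itself stood at 2971, 2916 and 2454 CPM with overexpression, 50.6 and 55.5 CPM with knockdown and 76.8, 76.4 and 91.2 CPM in control. Its log2 fold change against control was 5.10 ± 0.08 with overexpression and -0.62 ± 0.08 with knockdown (± standard error here and below), in the directions of the labels. All 7 kidney and HEK markers exceeded 1 CPM in every library, their sums ranging over 1074 to 1147 CPM with overexpression, 1383 to 1458 CPM with knockdown and 1218 to 1234 CPM in control. VIM made up most of that sum and was higher with knockdown (0.35 ± 0.05, adjusted p = 8.2e-06), while PAX2 and LHX1 were lower there (-0.40 and -0.38). With overexpression NEFL and KRT18 were lower (-0.46 and -0.15) and NEFM higher (0.31). Of 4 fibroblast markers 2 exceeded 1 CPM, with sums of 59.4 to 67.0 CPM with overexpression, 44.1 to 46.8 CPM with knockdown and 60.9 to 66.5 CPM in control. COL1A1 made up most of it and was lower with knockdown (-0.53), whereas LUM and DCN were higher with overexpression (0.78 and 1.24), DCN at under 1 CPM. No marker of blood (3), endothelium (2) or liver (2) exceeded 1 CPM in all libraries of any group. The part of these shifts in the values below was not tested.

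Reads were found for 41 of the 42 genes, and these 41 were tested. KIF2B, a close relative of KIF2A and KIF2C, had 0 reads among 167.1 M in all 8 libraries, which allows at most 0.018 CPM (3 counts, counting error only). Compared per length, as reads per kilobase of annotated exon per M reads (RPKM), mitotic kinesins stood highest in control: their median over the 14 detected genes was 25.0 RPKM, with a range of 11.5 to 50.7. The transport kinesins had a median of 5.98 RPKM and spanned 0.550 to 84.3, and the ciliary and other kinesins a median of 0.927 RPKM and a span of 0.0735 to 17.0. All 14 detected mitotic genes were among the 20 highest, beside 5 transport genes and KIF7. Genes with many annotated isoforms have an overstated exon length, so their RPKM is understated.

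**Figure D1:**
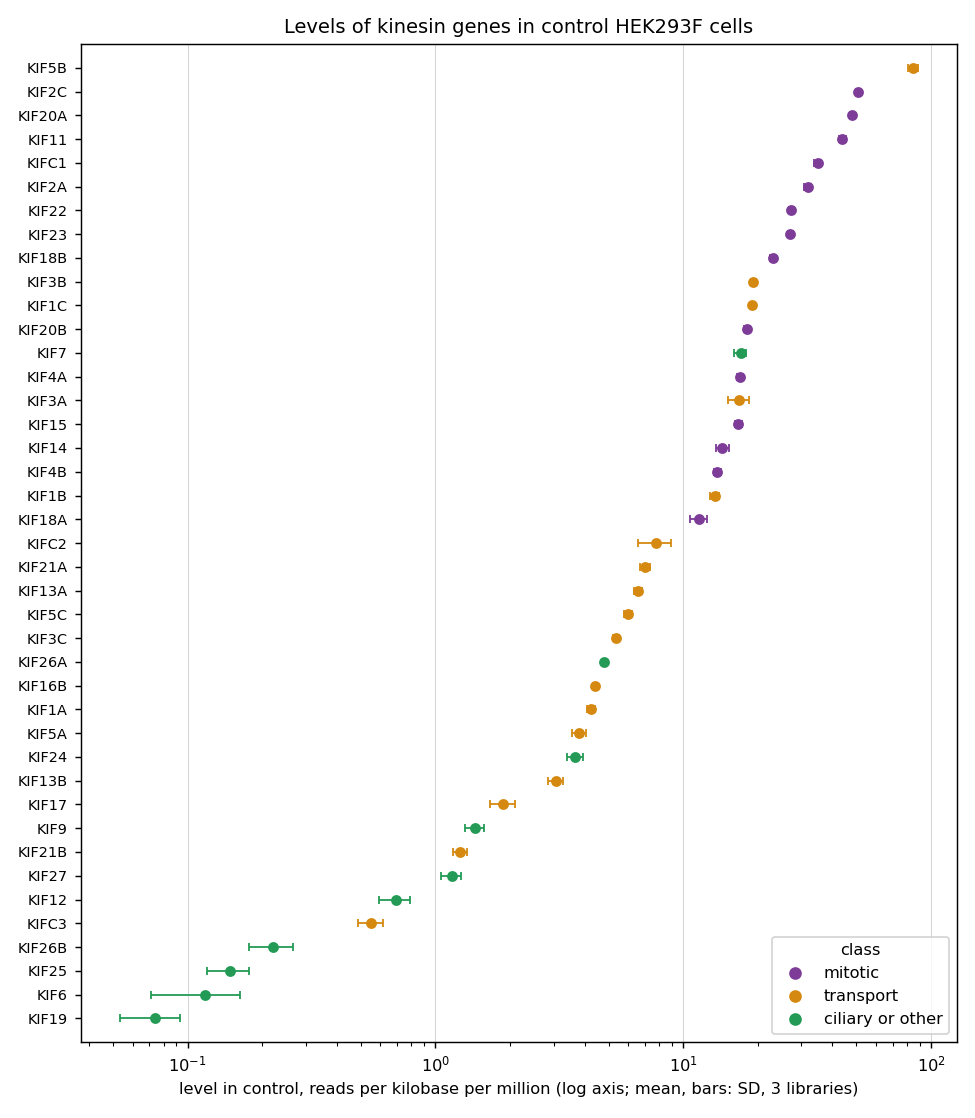
Mean level of each detected kinesin gene in control (RPKM, log axis), ordered from highest to lowest and coloured by class, with bars for the SD of 3 libraries. KIF5B leads at 84.3 RPKM, and the mitotic genes fill most of the upper part of the order.

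KIF5B, the widely expressed heavy chain of conventional kinesin, had the highest level of all at 84.3 ± 3.91 RPKM in control (SD, n = 3). KIF2C, KIF20A, KIF11 and KIFC1 came next with 50.7, 47.9, 43.9 and 34.8 RPKM, each further from its neighbour than their spreads. Further down the order many neighbours did not differ beyond their spread, such as KIF3B and KIF1C at 19.2 and 18.9 RPKM. Motors known from motile cilia were near the bottom, with KIF6 at 0.117 RPKM and KIF19 at 0.0735 RPKM.

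The windows from 250 bases before to 50 bases after the start of the gene were read from RefSeq (GRCh38.p14) for the 34 members found there. They are shown for KIF18A and KIF18B, a pair of related plus-end motors, for the chromosome-arm motor KIF4A, and for the transport motor KIF1C, which was low in both MOV10 conditions. Capitals mark TTTGAA, the core of the cell cycle genes homology region, and CCAAT or its reverse complement ATTGG.
KIF18B, chr17:44947724-44948023, minus strand: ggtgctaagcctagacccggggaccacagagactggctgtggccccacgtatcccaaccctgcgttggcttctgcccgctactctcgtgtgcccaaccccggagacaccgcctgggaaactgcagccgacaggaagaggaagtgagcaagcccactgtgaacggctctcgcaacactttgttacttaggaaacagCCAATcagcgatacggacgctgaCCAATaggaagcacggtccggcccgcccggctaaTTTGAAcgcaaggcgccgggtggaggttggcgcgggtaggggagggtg
KIF18A, chr11:28108107-28108406, minus strand: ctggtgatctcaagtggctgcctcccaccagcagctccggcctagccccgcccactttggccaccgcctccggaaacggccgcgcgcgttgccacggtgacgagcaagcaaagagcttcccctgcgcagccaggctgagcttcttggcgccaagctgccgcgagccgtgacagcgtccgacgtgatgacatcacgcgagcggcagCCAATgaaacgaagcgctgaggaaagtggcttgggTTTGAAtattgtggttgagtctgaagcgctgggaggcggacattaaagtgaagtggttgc
KIF4A, chrX:70289854-70290153, plus strand: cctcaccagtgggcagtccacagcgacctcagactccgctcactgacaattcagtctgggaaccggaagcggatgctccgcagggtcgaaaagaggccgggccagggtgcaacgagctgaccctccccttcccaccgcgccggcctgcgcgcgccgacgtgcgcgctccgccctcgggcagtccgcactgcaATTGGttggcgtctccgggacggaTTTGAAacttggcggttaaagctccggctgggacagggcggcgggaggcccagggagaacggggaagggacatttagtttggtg
KIF1C, chr17:4997700-4997999, plus strand: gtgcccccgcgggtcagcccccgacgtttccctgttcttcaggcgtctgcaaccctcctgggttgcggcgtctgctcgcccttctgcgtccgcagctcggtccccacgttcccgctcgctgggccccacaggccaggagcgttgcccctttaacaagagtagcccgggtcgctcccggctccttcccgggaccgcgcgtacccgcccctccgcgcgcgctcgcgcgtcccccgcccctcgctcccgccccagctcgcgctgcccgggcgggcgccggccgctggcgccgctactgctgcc

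The mitotic windows shown all hold both motifs close to the start site, while the KIF1C window holds neither. In KIF18B the CCAAT boxes lie 55 and 32 bases before the start and TTTGAA 2 bases after it. In KIF18A the CCAAT box lies 45 bases and TTTGAA 10 bases before the start. KIF4A carries an inverted CCAAT box 58 bases and TTTGAA 34 bases before its start. Counting both strands, TTTGAA was found for 10 of 15 mitotic genes (66.7%), for 1 of 12 transport genes (8.33%, KIF5B) and for 0 of 7 other genes, against 18.2% of the 27305 genes with such windows. CCAAT was found for 73.3% of mitotic, 33.3% of transport and 42.9% of other kinesin genes, against 39.7% of all. Both motifs stood in the same window for 9 of 15 mitotic genes (60.0%), against 7.26% of all genes. A match describes these letters only, and its absence says nothing of the factor.

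**Figure D2:**
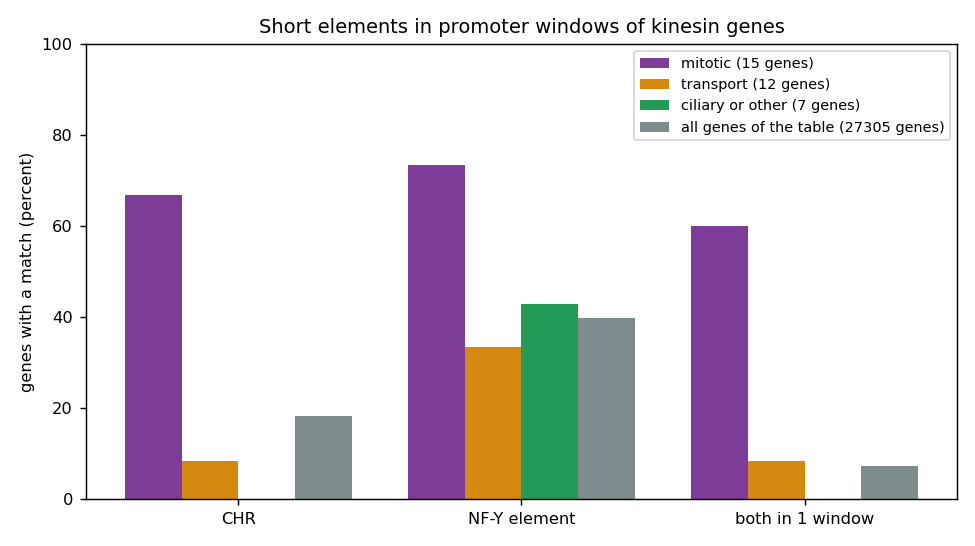
Percent of genes whose promoter window holds TTTGAA (labelled CHR), CCAAT (labelled NF-Y element, after the factor that binds it) or both in 1 window, for mitotic, transport and other kinesin genes and for all genes with windows. The mitotic bars stand at 66.7%, 73.3% and 60.0%, against 18.2%, 39.7% and 7.26% for all genes.

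With MOV10 overexpression, more mitotic kinesins fell than rose. Of the 14 tested, 7 fell and 1 rose at an adjusted p under 0.05 (edgeR's quasi-likelihood test, Benjamini-Hochberg over all 15254 genes), and their median log2 fold change was -0.16. Among all genes tested 24.1% were called lower and 25.2% higher, with a median of 0.01. Their summed level was 1601, 1583 and 1707 CPM with overexpression, against 1737, 1801 and 1761 CPM in control, so the groups did not overlap. The sums of the transport class and of the ciliary and other class, given below, were also lower without overlap. In bulk RNA, fewer cells in mitosis and less of the mitotic kinesin RNAs per cell cannot be told apart.

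The largest mitotic fall was in KIF18B, which works at the plus ends of spindle microtubules: 78.0, 86.3 and 69.3 CPM with overexpression, against 106, 105 and 109.9 CPM in control. All overexpression libraries lay below all control libraries, and the log2 fold change was -0.45 ± 0.06 (adjusted p = 5.84e-06). KIFC1, a minus-end motor that gathers spindle poles, had 97.5, 98.3 and 93.5 CPM with overexpression, against 113, 118 and 118 CPM in control, a change of -0.27 ± 0.05 (adjusted p = 0.000139). KIF2C, which removes tubulin from microtubules at centromeres, had 154, 160.4 and 152 CPM with overexpression, against 181, 186 and 188 CPM in control, a change of -0.25 ± 0.05 (adjusted p = 0.000159). Again neither gene's groups overlapped.

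KIF4A, which sits on chromosome arms and the central spindle, fell to 62.4, 58.2 and 66.6 CPM with overexpression, against 74.7, 79.0 and 77.1 CPM in control, -0.31 ± 0.06 (adjusted p = 0.000242). KIF20A, which brings the chromosomal passenger complex to the central spindle, fell to 165, 167 and 164 CPM with overexpression, against 187, 189.8 and 192 CPM in control, -0.20 ± 0.05 (adjusted p = 0.00109). KIF4B, at 53.5, 49.6 and 51.1 CPM with overexpression, against 62.2, 59.3 and 58.8 CPM in control, fell too (-0.23 ± 0.06, adjusted p = 0.0021), but its transcript is 95.2% identical to that of KIF4A over 4359 aligned positions, with identical runs of up to 151 bases, so how the reads of this pair were shared between them is uncertain. Summed, the pair fell by 0.27 on the log2 scale (adjusted p = 0.000188). Exons of KIF4A, KIF20A and KIF18A also overlap genes on the opposite strand (PDZD11, BRD8 with CDC23, and METTL15), each over 1.3% to 3.3% of their length. KIF22, a chromosome-arm motor, was the other that fell, -0.26 ± 0.05 (adjusted p = 0.000346).

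KIF15, which helps to hold the bipolar spindle beside KIF11, was the mitotic gene that rose, 0.25 ± 0.06 (adjusted p = 0.00185). Its levels were 102, 97.5 and 116 CPM with overexpression, against 84.8, 89.6 and 90.4 CPM in control. KIF11, which pushes spindle poles apart, did not pass the test (0.041 ± 0.06, adjusted p = 0.589), nor did KIF14, KIF18A, KIF20B, KIF23 and KIF2A. Overexpression replicate 3, the shallowest library, stood apart from the other 2 in KIF11, KIF14, KIF20B and KIF5B: KIF11 had 213, 202 and 246 CPM over the 3 libraries. Without that replicate 10 mitotic genes were called lower, with KIF14, KIF20B and KIF23 added. Of all 15254 genes 3885 were lower in that fit, instead of 3671.

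Transport kinesins moved both ways with overexpression. Of 17 tested, 5 rose and 5 fell, shares close to the 25.2% higher and 24.1% lower of all genes. Their median was -0.03. It was 0.01 when libraries were scaled by their totals or without control replicate 3. Without overexpression replicate 2 it was -0.06, and without KIF17, KIF21A and KIF21B in the class -0.11. Transport genes summed to 1481, 1426 and 1539 CPM with overexpression, against 1570, 1622 and 1569 CPM in control, also without overlap. KIF3B, the motor subunit that pairs with KIF3A in heterotrimeric kinesin-2, had 84.6, 73.5 and 80.2 CPM with overexpression, against 119.5, 117 and 114 CPM in control. Those groups were far apart, and the change was -0.56 ± 0.06 (adjusted p = 1.02e-07). KIF3A had 105, 93.2 and 110.1 CPM with overexpression, against 111, 128 and 106 CPM in control (-0.17 ± 0.07, adjusted p = 0.0422), and its groups overlapped. KIF1C, which carries dense-core and other vesicles, had 116, 119 and 106 CPM with overexpression, against 163, 161 and 163 CPM in control. This difference was -0.51 ± 0.05 (adjusted p = 1.29e-07). KIF1C was singled out because it had been seen to be low in both MOV10 conditions, so its direction in each is a description.

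KIF1A, the axonal motor for precursors of synaptic vesicles, moved the opposite way and rose: 101, 107 and 99.2 CPM with overexpression, against 68.8, 70.3 and 74.0 CPM in control, 0.53 ± 0.05 (adjusted p = 1.56e-07). KIF5A, a conventional kinesin heavy chain best known from neurons, had 17.9, 17.8 and 18.9 CPM with overexpression, against 22.2, 23.97 and 25.2 CPM in control, -0.39 ± 0.08 (adjusted p = 0.000292). Among the remaining calls, KIF13B, KIF17, KIF21B and KIFC3 rose by 0.19 to 0.43 on the log2 scale, and KIF13A fell by 0.23. The groups of KIFC3 overlapped, and its call was lost with DESeq2 and without overexpression replicate 1 or 2 or control replicate 2 or 3. KIF5B had 445, 423 and 496 CPM with overexpression, against 505, 512 and 469 CPM in control, and did not pass the test, though it did without overexpression replicate 3 (adjusted p = 0.000165). KIF5C, at 50.8, 49.7 and 53.3 CPM with overexpression and 54.0, 53.8 and 57.5 CPM in control, did not pass either. Nor did KIF3C, at 32.97, 34.7 and 32.4 CPM with overexpression and 35.3, 33.5 and 33.7 CPM in control. KIF1B, KIF16B and KIF21A were called in no comparison, this one and those below. Without overexpression replicate 1 or 2 or control replicate 1, 3 transport genes were called higher instead of 5. Of all genes 3348, 3714 and 3097 were higher in these fits, instead of 3837.

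Of the 10 ciliary and other kinesins, 1 rose and 1 fell, and the median was 0.11. They summed to 151, 152 and 144 CPM with overexpression, against 158, 159 and 170 CPM in control, again without overlap. KIF7, a regulator of Hedgehog signalling at the tip of the primary cilium, had 69.2, 74.0 and 67.0 CPM with overexpression, against 80.5, 85.1 and 90.0 CPM in control, -0.28 ± 0.06 (adjusted p = 0.00039). KIF19, which trims ciliary microtubules, had 0.959, 0.671 and 0.614 CPM with overexpression, against 0.399, 0.311 and 0.534 CPM in control. It rested on few reads and was called higher (0.92 ± 0.35, adjusted p = 0.0305), although with DESeq2 the adjusted p was 0.162. KIF24, which holds back cilium assembly, and KIF26A, an atypical family member, did not pass the test: KIF24 had 21.7, 17.6 and 20.02 CPM with overexpression, against 22.9, 20.8 and 23.9 CPM in control, and KIF26A had 35.9, 38.5 and 32.1 CPM with overexpression, against 32.8, 32.3 and 31.9 CPM in control. KIF12, KIF25 and KIF6, all of low level, were not called either. KIF12 had 2.33, 2.10 and 2.15 CPM with overexpression, against 1.77, 2.17 and 2.34 CPM in control. KIF25 had 0.625, 0.582 and 0.460 CPM with overexpression, against 0.576, 0.570 and 0.401 CPM in control. KIF6, a gene of motile cilia, had 1.13, 1.16 and 1.30 CPM with overexpression, against 0.975, 1.19 and 2.00 CPM in control, the groups of all 3 overlapping.

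**Figure D3:**
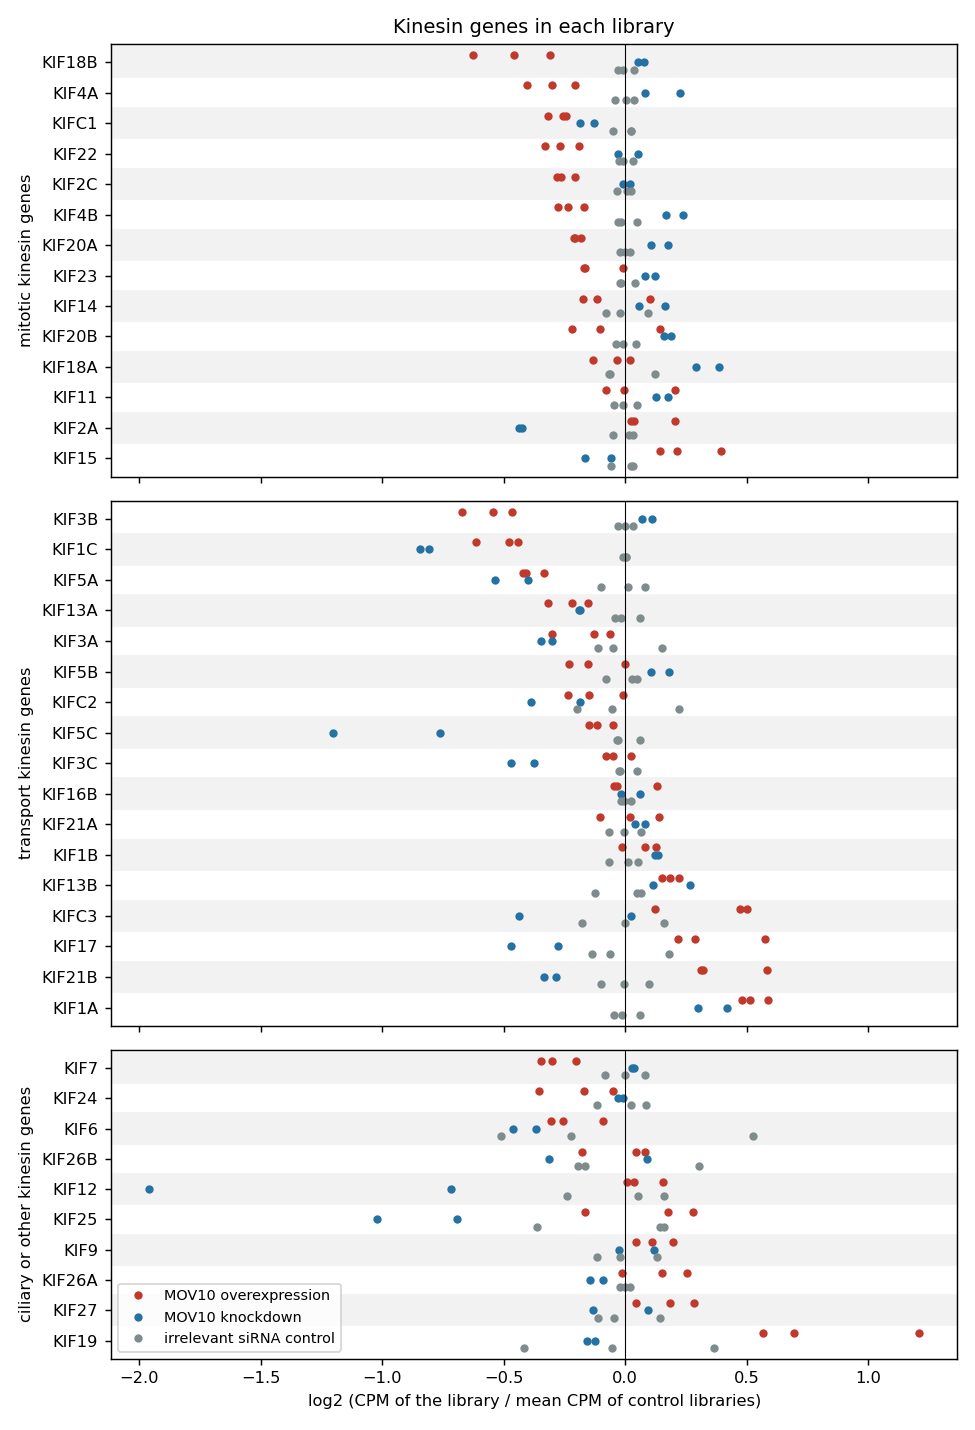
log2 of the CPM of each library over the mean CPM of the control libraries, for every detected kinesin gene, in 3 panels by class; each point is a library of MOV10 overexpression (red), MOV10 knockdown (blue) or control (grey). KIF18B and KIF3B show all overexpression libraries below all others, KIF5C all knockdown libraries below all others, and KIF1C both conditions below control.

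With MOV10 knockdown it was the transport kinesins of which more fell than rose. Of 14 mitotic kinesins 3 rose and 2 fell, with a median of 0.11, while 9 of 17 transport kinesins fell and 2 rose, with a median of -0.25. Among all genes 19.9% were called higher and 19.1% lower, with a median of -0.00. As numbers, 3036 of the 15254 genes were higher and 2907 lower, and these moved with the libraries used. Without knockdown replicate 2, which leaves 1 knockdown library, the medians were 0.07 for mitotic and -0.18 for transport genes. The count of transport genes called lower was 6 without control replicate 2 or 3, where 2309 and 2413 of all genes were lower. That of mitotic genes called higher was 6 or 7 without overexpression replicate 2 or 3, where 3355 and 3731 of all genes were higher. It was 8 with only the knockdown and control libraries fitted, where 3823 of 14958 genes were higher. The count of transport genes called higher was 1 without control replicate 1, where 2468 of all genes were higher, and 4 without overexpression replicate 2 or 3.

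The transport fall was led by KIF5C, another neuronal heavy chain of conventional kinesin: 23.97 and 32.5 CPM with knockdown, against 54.0, 53.8 and 57.5 CPM in control. The knockdown libraries lay far below, and the change was -0.99 ± 0.09 (adjusted p = 6e-08). KIF1C had 90.5 and 92.7 CPM with knockdown, against 163, 161 and 163 CPM in control, -0.83 ± 0.06 (adjusted p = 1.53e-09). Having been seen to be low beforehand, KIF1C is described here rather than tested. KIF5A fell as well, to 16.4 and 18.02 CPM with knockdown, against 22.2, 23.97 and 25.2 CPM in control, -0.47 ± 0.08 (adjusted p = 0.000162). KIF5B, the widely expressed heavy chain, did not pass the test, with 562 and 534 CPM with knockdown, against 505, 512 and 469 CPM in control (0.14 ± 0.06, adjusted p = 0.0582), and it passed in the fit of only those groups (adjusted p = 0.00128).

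KIF3C, which can replace KIF3B as the partner of KIF3A, fell to 24.7 and 26.3 CPM with knockdown, against 35.3, 33.5 and 33.7 CPM in control, -0.43 ± 0.07 (adjusted p = 8.38e-05). KIF3A fell as well (-0.33 ± 0.07, adjusted p = 0.00156), while KIF3B had 126 and 122 CPM with knockdown, against 119.5, 117 and 114 CPM in control, and did not pass the test. The reads of KIF3B per read of KIF3A were 0.804, 0.788 and 0.729 with overexpression, 1.40 and 1.31 with knockdown and 1.08, 0.915 and 1.08 in control, with no overlap between groups. KIF5C took 9.89%, 10.1% and 9.39% of the reads of the 3 KIF5 genes with overexpression, 3.98% and 5.57% with knockdown and 9.29%, 9.12% and 10.4% in control. KIF1A was among the 2 transport genes that rose, at 87.4 and 94.9 CPM with knockdown, against 68.8, 70.3 and 74.0 CPM in control, 0.36 ± 0.06 (adjusted p = 8.05e-05), the other being KIF13B. The remaining transport genes called lower were KIF13A, KIF17, KIF21B and KIFC2, by 0.19 to 0.37 on the log2 scale. KIFC2 had 26.3 and 30.2 CPM with knockdown, against 30.0, 33.1 and 40.1 CPM in control, so its groups overlapped. Its call was lost without knockdown replicate 2 or control replicate 3. On the opposite strand 17.8% of its exon length overlaps FOXH1, which had 110 reads over all libraries, against 5203 for KIFC2.

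Among mitotic kinesins KIF2A, which removes tubulin at spindle poles and also acts outside mitosis, fell: 113 and 112 CPM with knockdown, against 153, 155 and 146 CPM in control, -0.43 ± 0.06 (adjusted p = 1.09e-05). It shares 9.0% of its exon length on the same strand with IPO11, and IPO11 did not pass the test (-0.11 ± 0.06, adjusted p = 0.15). KIF18A, which dampens the movement of chromosomes at the metaphase plate, rose to 70.4 and 66.0 CPM with knockdown, against 51.5, 58.6 and 51.4 CPM in control, 0.34 ± 0.07 (adjusted p = 0.000481). KIF4B rose to 70.7 and 67.6 CPM with knockdown, against 62.2, 59.3 and 58.8 CPM in control (0.20 ± 0.06, adjusted p = 0.00987), with an adjusted p of 0.144 without knockdown replicate 2. The sum with its near copy KIF4A rose too (0.18, adjusted p = 0.0145).

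KIF20A rose by a small amount, with 214 and 204 CPM with knockdown, against 187, 189.8 and 192 CPM in control, 0.14 ± 0.05 (adjusted p = 0.0272), and was not called without knockdown replicate 2 or any single control library. KIFC1 had 107 and 102 CPM with knockdown, against 113, 118 and 118 CPM in control, -0.15 ± 0.05 (adjusted p = 0.0296), and was not called without either knockdown replicate or control replicate 2 or 3. KIF18B, the gene that fell furthest with overexpression, had 113 and 111 CPM with knockdown and did not pass the test (0.066 ± 0.07, adjusted p = 0.463). KIF4A had 90.0 and 81.3 CPM with knockdown and was just outside the threshold (0.16 ± 0.06, adjusted p = 0.0515). KIF2C had 187 and 184 CPM with knockdown, overlapping control (0.0052 ± 0.05, adjusted p = 0.948). Of the ciliary and other kinesins KIF12 was called, at 0.539 and 1.28 CPM with knockdown, against 1.77, 2.17 and 2.34 CPM in control (-1.32 ± 0.28, adjusted p = 0.000933), which gave an adjusted p of 0.115 without knockdown replicate 2. The other 9 were not called. KIF7 had 87.0 and 87.5 CPM and KIF24 22.4 and 22.1 CPM with knockdown, both overlapping control. KIF26A had 30.3 and 29.2 CPM with knockdown and lay below all control libraries. Of the genes with the fewest reads, KIF25 had 0.254 and 0.319 CPM, KIF19 0.380 and 0.372 CPM and KIF6 1.08 and 1.01 CPM with knockdown.

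**Figure D4:**
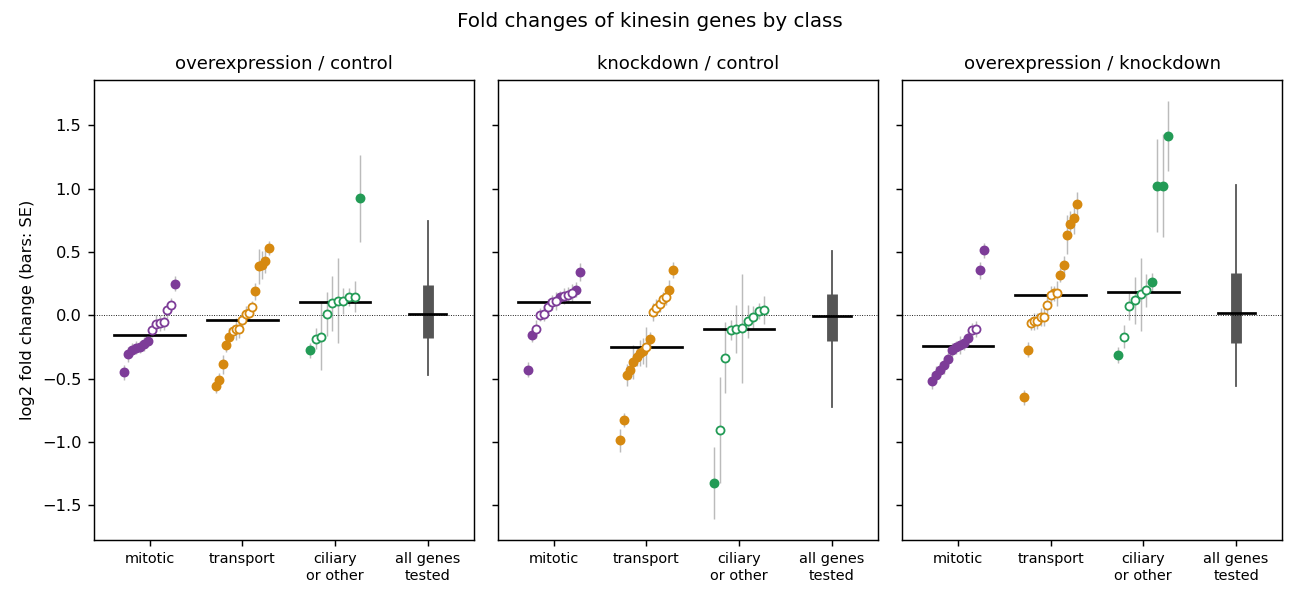
log2 fold change of each tested kinesin gene by class (bars, standard error; horizontal lines, class medians), for overexpression over control, knockdown over control and overexpression over knockdown; filled points passed an adjusted p of 0.05, and the dark bars at right give the quartiles (thick) and the 5% to 95% range (thin) of all genes tested. The medians of mitotic and transport genes were -0.16 and -0.03, 0.11 and -0.25, and -0.24 and 0.16.

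Overexpression and knockdown libraries were also compared directly, a comparison that does not use the control libraries' levels. These groups also differ in plasmid transfection and siRNA course, which cannot be told apart from MOV10 here. Mitotic kinesins were lower in 10 and higher in 2 of 14 with overexpression, with a median of -0.24, and transport kinesins were higher in 7 and lower in 2 of 17, with a median of 0.16. Of all genes 29.3% were called higher and 28.1% lower. KIF18B was at -0.52 and KIF18A at -0.39 (adjusted p = 2.07e-06 and 5.22e-05), KIF20A at -0.34 and KIF2A at 0.52. In transport, KIF5C stood at 0.88 and KIF3B at -0.65 (adjusted p = 9.66e-08 and 2.46e-08), and KIF5B was lower with overexpression (-0.27 ± 0.06, adjusted p = 0.000571). KIF1C was higher with overexpression than with knockdown (0.32 ± 0.06, adjusted p = 8.44e-05). Ciliary and other kinesins were higher in 4 and lower in 1 of 10, the higher ones being KIF12, KIF19, KIF25 and KIF26A, and KIF7 the lower one. KIF19 and KIF25 stood under 1 CPM in every library, and their adjusted p was 0.136 and 0.18 with DESeq2. Both calls were also lost without overexpression replicate 1 or either knockdown replicate, and that of KIF25 without overexpression replicate 2.

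Against control, which both conditions share, KIF20A and KIF4B fell with overexpression and rose with knockdown, and KIF17 and KIF21B did the opposite. KIF17, a motor of dendritic and ciliary cargo, had 10.2, 12.5 and 9.74 CPM with overexpression, 6.06 and 6.91 CPM with knockdown and 7.63, 8.02 and 9.48 CPM in control. KIF21B, which also regulates microtubule growth, had 18.96, 22.9 and 19.1 CPM with overexpression, 12.6 and 12.1 CPM with knockdown and 14.3, 15.2 and 16.4 CPM in control. The knockdown calls of KIF17 and KIF21B were lost without knockdown replicate 2 or control replicate 2 or 3, that of KIF21B also without knockdown replicate 3 and that of KIF17 with DESeq2, and the overexpression call of KIF17 was lost without overexpression replicate 2 or control replicate 1. How many of all genes were called in both conditions, in the same or in opposite directions, was not counted. KIF1C, KIF13A, KIF3A, KIF5A and KIFC1 were called lower in both conditions, and KIF1A and KIF13B higher in both. Of these, the overexpression call of KIF3A was lost with library totals and without overexpression replicate 1 or 2, either knockdown replicate, or control replicate 1 or 2. The knockdown call of KIF13A was lost without either knockdown replicate or control replicate 2. The knockdown call of KIF13B was lost with library totals, with DESeq2, and without knockdown replicate 2 or control replicate 1, and its overexpression call without overexpression replicate 1 or control replicate 1.

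**Figure D5:**
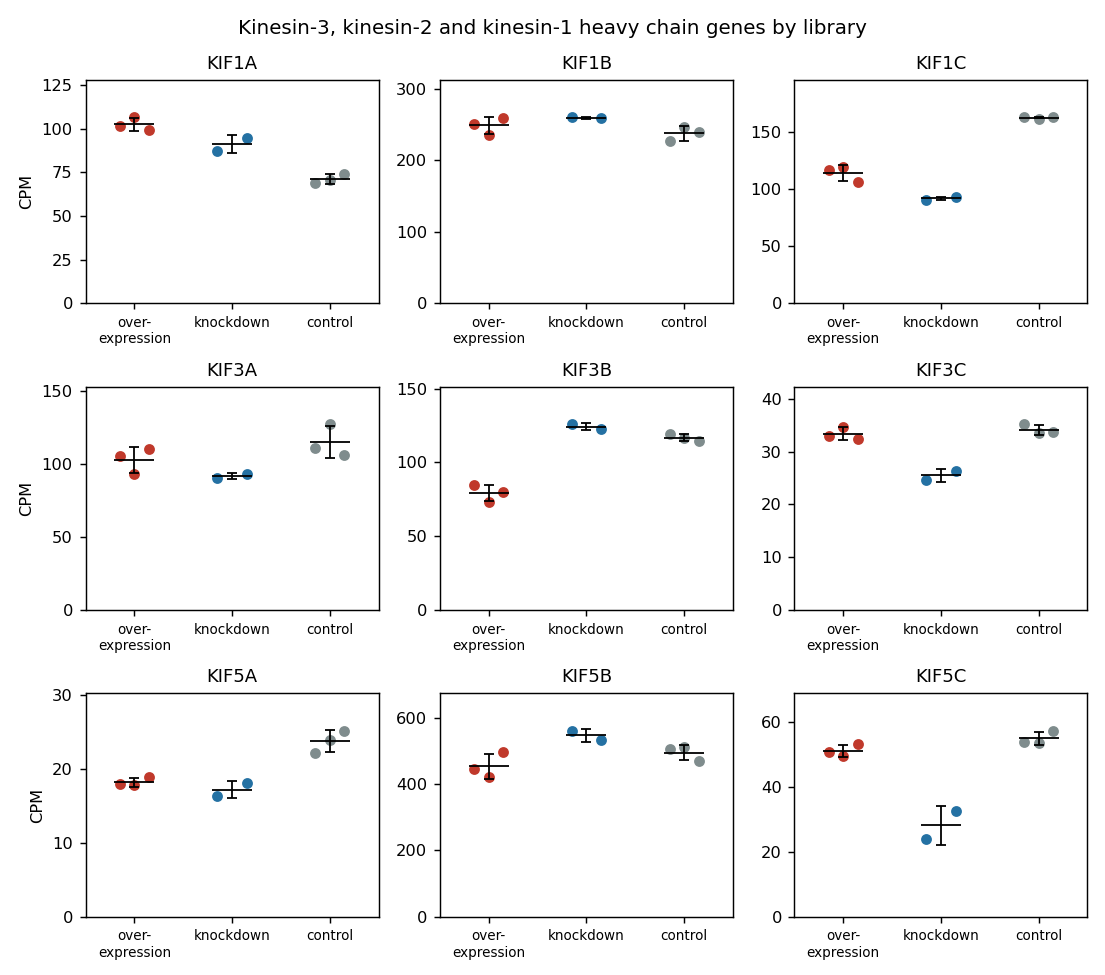
CPM of the KIF1, KIF3 and KIF5 genes in each library (points), with the mean and SD of each group (lines), for overexpression, knockdown and control from left to right. KIF3B is low with overexpression, KIF5C and KIF3C are low with knockdown, and KIF1C is low in both, against control.

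In the KIF18 and KIF2 pairs, chosen after their values were seen, the members were called in different comparisons. KIF18B fell with overexpression, where its relative KIF18A did not pass the test (-0.052 ± 0.06, adjusted p = 0.518), and KIF18A rose with knockdown. Likewise KIF2C fell with overexpression, where KIF2A did not pass it (0.086 ± 0.05, adjusted p = 0.184), and KIF2A fell with knockdown. KIF18A had 52.6, 49.1 and 54.6 CPM and KIF2A 155, 154 and 175 CPM with overexpression. Differences between 2 genes in their fold changes were not tested. Some other relatives were called together. KIF4A and KIF4B were lower with overexpression, though how reads were shared in that pair is uncertain. KIF5A with KIF5C and KIF3A with KIF3C were lower with knockdown, where KIF5B and KIF3B were not called. Yet other relatives went apart: KIF1C and KIF13A were lower in both conditions, while KIF1A and KIF13B were higher in both. KIF20A and KIF21B were called in both, and their relatives KIF20B and KIF21A in neither, against control. Of the 7 mitotic genes lower with overexpression, KIF18B, KIF4A, KIF4B and KIFC1 carry TTTGAA in their window and KIF20A, KIF22 and KIF2C do not. Of the 6 mitotic genes not called there, 5 carry it.

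The partner lists are read against all genes, of which 25.2% were called higher and 24.1% lower with overexpression, and 19.9% higher and 19.1% lower with knockdown. Most of the knockdown counts and those of dynein lay near these shares, while the 8 of 19 mitotic partners and 8 of 18 mitotic cell cycle genes called lower with overexpression were more than them. Among 19 mitotic partners 8 fell and 1 rose with overexpression (median -0.08), and 2 fell and 5 rose with knockdown (median 0.05). BIRC5, a subunit of the passenger complex that KIF20A carries, had 227, 231 and 227 CPM with overexpression, 310.2 and 279 CPM with knockdown and 299, 286 and 286 CPM in control, a log2 fold change with overexpression of -0.35 ± 0.05 (adjusted p = 5.14e-06). INCENP of the same complex was at -0.31 and MAPRE1, the plus-end protein EB1, at -0.25. With knockdown TPX2, a spindle assembly factor, fell (-0.33 ± 0.05, adjusted p = 2.91e-05), PLK1, a mitotic kinase, rose (0.40 ± 0.06, adjusted p = 3.54e-05), and CENPE rose (0.30 ± 0.07, adjusted p = 0.0028).

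Of 24 transport partners 4 rose and 8 fell with overexpression (median -0.02), and 4 rose and 6 fell with knockdown (median 0.01). FEZ1, an adaptor of conventional kinesin, had 16.9, 18.8 and 15.9 CPM with overexpression, 6.66 and 6.22 CPM with knockdown and 12.5, 13.98 and 12.96 CPM in control, opposite directions that both passed the test (0.40 with overexpression and -1.02 with knockdown). KLC3, a kinesin light chain, fell with knockdown (-1.06 ± 0.12, adjusted p = 1.06e-06), as did KIFAP3, the third subunit beside KIF3A and KIF3B (-0.29 ± 0.06, adjusted p = 0.000619). With overexpression PPFIA1 (-0.39) and the light chain KLC2 (-0.28) fell and PPFIA4 rose (0.87 ± 0.13, adjusted p = 1.78e-05); PPFIA1 and PPFIA4 are liprins, which bind KIF1A.

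The opposite motor, dynein-1 with dynactin, had 4 of 24 genes higher and 6 lower with overexpression (median -0.08), and 5 higher and 3 lower with knockdown (median 0.00). DCTN5, DCTN4 and DYNLRB1 fell with overexpression (-0.34, -0.29 and -0.30). With knockdown the heavy chain DYNC1H1 rose (0.48 ± 0.07, adjusted p = 1.65e-05), while DYNC1LI2 and the adaptor BICD2 fell (-0.42 and -0.32). Of 18 mitotic cell cycle genes 3 rose and 8 fell with overexpression (median -0.10), and 3 rose and 2 fell with knockdown (median -0.01). FOXM1, a transcription factor of mitotic genes, had 247, 265 and 224 CPM with overexpression, 410.3 and 391 CPM with knockdown and 403, 393 and 403 CPM in control, and CCNB1 was at -0.35 with overexpression, while TOP2A rose there (0.28 ± 0.05, adjusted p = 8.28e-05). E2F1 and MAD2L1 fell with knockdown (-0.61 and -0.25), and LIN9, a subunit of the MuvB complex, rose (0.26).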

How the data were processed

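The authors deposited raw read counts per gene symbol. The submitters' processing notes name TopHat2 2.0.8 and the build hg19, HTSeq 0.5.3p9, edgeR, Trimmomatic 0.22, CASAVA 1.8.2 and SAMtools 0.1.18. Per the labels' protocols, Trizol RNA went into stranded TruSeq libraries. Which strand was counted, and how multiply aligned reads were treated, is not given in the sources used here, so overlapping and near-identical genes are uncertain. Groups came from sample titles.

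Counts were filtered with filterByExpr (minimum count 10, minimum total 15), leaving 15254 genes, scaled by TMM (factors 0.961 to 1.03) and fitted over all 8 libraries with edgeR 4.0.16 in R 4.3.3 (quasi-likelihood test, Benjamini-Hochberg). The common biological coefficient of variation was 4.49%. Standard errors were taken as the log2 fold change over the square root of F. The scripts were tested on simulated data. Alternatives included DESeq2 1.42.0.

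Members and lists were chosen with earlier results of these data known. Named were KIF1C, up to 4 members per class and comparison with control with the smallest adjusted p, the 2 members per class with the highest RPKM in control, and up to 3 genes per partner list and comparison; KIF11, KIF15, KIF17, KIF21B, KIF22 and KIF3A were added after their values were seen. Lengths came from GENCODE 29.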

Additional observations from a re-analysis of the deposited data

How the results depend on the processing

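Most of the class counts depended on the fold required. Tested against a fold of 1.2, overexpression against control left 0 mitotic genes higher and 1 lower, and 1 transport gene higher and 2 lower; knockdown against control left 0 mitotic higher and 1 lower, and 0 transport higher and 4 lower; overexpression against knockdown left 1 mitotic higher and 4 lower, and 5 transport higher and 1 lower. Of all 15254 genes, that fold left 1491 higher and 859 lower with overexpression, instead of 3837 and 3671. With knockdown it left 722 higher and 978 lower, instead of 3036 and 2907. For overexpression against knockdown it left 2475 higher and 1522 lower, instead of 4467 and 4289. The cause of the other changes was not tested. Scaling by library totals gave 2 mitotic genes higher with overexpression and 1 transport gene higher with knockdown. With it the share of all calls that were higher was 60.1% instead of 51.1% with overexpression, 39.5% instead of 51.1% with knockdown and 65.5% instead of 51.0% for overexpression against knockdown, where the median of all genes moved to 0.10. With no filter 6 mitotic genes were higher with knockdown, as were 3147 of all 19748 genes. Fitting only the compared groups gave 8 mitotic and 4 transport genes higher with knockdown, and DESeq2 gave 1 transport gene higher. Over all genes, 3823 of 14958 and 2644 of 15254 were higher in these fits. Without KIF17, KIF21A and KIF21B in the class, 3 transport genes were higher with overexpression. Without KIF2A, 1 mitotic gene was lower with knockdown and 1 higher for overexpression against knockdown, by construction.

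Leaving out each library in turn gave, with overexpression, 1 mitotic gene higher and 7 to 10 lower, and 3 to 5 transport genes higher and 4 to 6 lower. Of all genes 3097 to 3966 were higher and 3007 to 3885 lower there. With knockdown, and both knockdown libraries kept, it gave 2 to 7 mitotic genes higher and 1 to 2 lower. Transport genes were then higher in 1 to 4 and lower in 6 to 9. For overexpression against knockdown, with both knockdown libraries kept, it gave 2 mitotic higher and 9 to 11 lower, and 7 to 8 transport higher and 2 lower. The calls over all genes moved too: in the same fits, 2415 to 3731 were higher and 2309 to 3490 lower with knockdown. For overexpression against knockdown 3981 to 4597 were higher and 3849 to 4536 lower. A knockdown group of 1 library was assumed to vary like the others, and counts from it are left out of the knockdown ranges. Without knockdown replicate 2 or 3, the medians against control were 0.07 and 0.14 for mitotic genes. For transport genes they were -0.18 and -0.28.

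Replicate numbers did not pair the libraries: correlations of deviations between same-numbered libraries lay between -0.085 and 0.09. With the replicate block, 1 mitotic gene was lower and 1 transport gene higher with knockdown, and the calls of KIFC1 (adjusted p = 0.0518), KIF20A (0.0792) and KIF13B with knockdown, of KIF3A with overexpression, and of KIF14, KIF19 (0.0839) and KIF25 (0.0889) for overexpression against knockdown were lost.

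Reversals touched values that were not called. For knockdown against control, KIF2C was at -0.041 with library totals and -0.0072 with the replicate block, and -0.012 to 0.019 leaving out each library; KIF7 was at -0.0097 with library totals and ran over -0.0049 to 0.074; KIF19 was at 0.056 with the replicate block and ran over -0.26 to 0.073; KIF24 was at 0.036 with the replicate block and ran over -0.071 to 0.022. For overexpression against control, KIF3C was at 0.0073 with library totals. Leaving out each library there, KIF18A ran over -0.086 to 0.014, KIF12 over -0.028 to 0.17, KIF25 over -0.0038 to 0.21 and KIF6 over -0.39 to 0.13. KIF19, KIF25, KIF6 and KIF12 rest on few reads. Summing KIF4A and KIF4B was chosen after seeing the data.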
